A study of Mus musculus with 6 samples.

Results

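The proteasome genes and the Uch deubiquitinases were followed in mouse neural stem cells in which the circular RNA circHIPK2 was targeted by an siRNA. The members were taken by gene symbol: the core, cap, activator, inhibitor and assembly chaperone genes of the proteasome (Psma, Psmb, Psmc, Psmd, Psme, Psmf1 and Psmg). Taken with them were 4 ubiquitin C-terminal hydrolases of the Uch family (Uchl1, Uchl3, Uchl5 and Bap1). Uchl4, a near-identical copy of Uchl3, was not a member and is described beside it. The members made up 52 of the 54884 entries of the gene table. One group held 3 libraries of cells transduced with a lentivirus for the circHIPK2 siRNA, and the other 3 libraries of cells transduced with a lentivirus for a control siRNA named circCon. The level of circHIPK2 itself, a circular transcript, was not analysed here, so these values do not check the knockdown. Cells of both groups were embryonic neural stem cells of C57BL/6J mice, taken from the hippocampus at embryonic day 14 and used between passages 3 and 8. Expression was measured by poly(A)-selected, paired-end RNA sequencing and is given as FPKM (fragments per kilobase of transcript, scaled to a common number of mapped fragments). The labels do not say whether the 3 libraries of a group came from separate cultures, and the p-values therefore cover no more than library-to-library spread, possibly technical.

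The proteasome is the main protease for ubiquitin-tagged proteins. Its core particle stacks rings of alpha and beta subunits, with the cutting sites inside the beta rings. A cap of ATPase and non-ATPase subunits binds the tagged protein, removes the ubiquitin, unfolds the chain and feeds it into the core. Interferon exposure can exchange the catalytic beta subunits for immune counterparts, and other activators can take the place of the cap. The Uch enzymes are cysteine proteases that free ubiquitin from small adducts or from chains, and Uchl1 is one of the most abundant proteins of neurons. In neural stem cells, protein turnover is part of the balance between division and differentiation.

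Depth, read from the steps of low FPKM values, was between 18430000 and 20990000 fragments in the circHIPK2 siRNA libraries and between 19880000 and 21900000 in the control libraries. Neural stem cell markers were present, with all 10 at a mean of at least 1 FPKM and sums of 1808 to 2265 FPKM in siRNA libraries and 1998 to 2533 FPKM in control libraries. Microglial markers, from cells that use immune proteasomes, summed to between 0.39 and 0.922 FPKM in siRNA libraries and between 0.435 and 0.746 FPKM in control libraries. Of those 10 markers, 5 (Cx3cr1, Itgam, Ptprc, C1qb and C1qc) were listed at 0 in every library. For neurons, 8 of 10 markers reached a mean of 1 FPKM, and the list summed to between 207 and 239 FPKM in siRNA libraries and between 237 and 279 FPKM in control libraries. Hepatocyte genes, a list drawn up with earlier results of these data in view, summed to between 2.10 and 2.21 FPKM in siRNA libraries and between 39.9 and 64.8 FPKM in control libraries, and all 10 of them were among the 19 entries called lower in the whole table. In addition, 9 entries that lie in the ribosomal RNA locus or follow it in level held 11.5%, 3.24% and 19.9% of all FPKM in siRNA libraries 1 to 3 and 0.58%, 0.426% and 0.321% in control libraries 1 to 3. Their part in the differences between groups, and that of the hepatocyte genes, was not tested beyond the rescaled values given with the results. In bulk RNA, fewer cells of a type and less RNA per cell cannot be told apart.

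Uchl3 has a near-identical copy in the mouse genome, Uchl4, and the start of both coding sequences is shown because the values of Uchl3 depend on how reads were assigned between them. The coding sequence of Uchl3, on chromosome 14, is 690 bases long in the GENCODE vM21 annotation, and that of Uchl4, on chromosome 9, is 699. They were identical at 672 of 699 aligned positions (96.1%), with 18 mismatches and 9 gap positions. The first 180 coding bases are printed 5′ to 3′ on the coding strand, and capitals mark the 7 positions at which they differ.
Uchl3: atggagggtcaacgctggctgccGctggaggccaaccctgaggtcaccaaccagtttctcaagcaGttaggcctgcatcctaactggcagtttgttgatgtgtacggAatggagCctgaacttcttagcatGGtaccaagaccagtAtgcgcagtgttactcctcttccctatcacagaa
Uchl4: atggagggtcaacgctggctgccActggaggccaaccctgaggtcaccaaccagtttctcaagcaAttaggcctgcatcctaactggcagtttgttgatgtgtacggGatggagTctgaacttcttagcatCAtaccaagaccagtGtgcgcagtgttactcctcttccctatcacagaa
By comparison, the coding sequences of Uchl3 and Uchl1 were identical at 59.8% of aligned positions. A read of Uchl3 can therefore match Uchl4 with few or no mismatches, whereas it is well separated from Uchl1.

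Of the 52 members, 49 reached the mean of 1 FPKM needed for testing, and only Uchl3 passed the test across all genes. No member rose and 1 fell (limma on log2(FPKM + 1), with Benjamini-Hochberg adjustment over 13702 entries, called at an adjusted p below 0.05), whereas 0.117% of all entries rose (16) and 0.139% fell (19). After median-of-ratios scaling 8 entries rose and 15 fell, and after quantile normalization 6 rose and 13 fell. At an unadjusted p below 0.05, 17 members were lower and 0 higher, against 15.5% and 1.83% of all entries. The 3 members below the filter were Psma8, an alpha subunit of the testis, Psmb11, a beta subunit of the thymic cortex, and the immune subunit Psmb8. Their means over all libraries were 0.00197, 0.00393 and 0.868 FPKM, and the lowest member above the filter, Psmb9, had 1.37 FPKM. Libraries did not overlap for 20 of the 49 members with the siRNA lower and for 0 with it higher, against 22.1% and 2.65% of all entries. After median-of-ratios scaling this held for 13 members lower and 2 higher (Psmb9 and Psmb10), against 11.4% and 8.93% of all entries. These shares of all entries were not matched to the members by level. All 13702 entries together had a median log2 fold change of −0.12, and of −0.01 once libraries were rescaled by median of ratios, so the medians of subunit groups are given relative to that of all entries.

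Uchl3, which releases ubiquitin and the related modifier Nedd8 from their precursors and small adducts, fell about 4-fold with the circHIPK2 siRNA. It had 1.01, 1.27 and 0.982 FPKM in siRNA libraries 1 to 3, against 5.08, 4.49 and 4.01 FPKM in control libraries 1 to 3. All siRNA libraries lay far below all controls, with no overlap. The means were 1.09 ± 0.157 FPKM with the siRNA and 4.53 ± 0.534 FPKM in the controls (SD, n = 3 each), a 4.17-fold difference of means. The log2 fold change of −1.40 (SE 0.12) passed the test (limma, Benjamini-Hochberg adjusted p = 0.00346), and by p-value Uchl3 ranked at place 6 of all 13702 entries. On a transcript of 903 bases and at the depths above, the values correspond to about 17, 24 and 18 fragments in siRNA libraries and 91, 89 and 77 in control libraries. With any 1 library left out, the log2 fold change lay between −1.47 and −1.33, and the Benjamini-Hochberg adjusted p from limma between 0.00965 and 0.0347. After removal of the 9 ribosomal RNA entries and rescaling it was −1.27 (limma, Benjamini-Hochberg adjusted p = 0.00524).

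The copy Uchl4, which has a single exon, showed a smaller difference. It had 2.96, 3.66 and 2.82 FPKM in siRNA libraries, against 4.26, 3.91 and 3.90 FPKM in control libraries. The libraries did not overlap, but the log2 fold change of −0.28 did not pass the test (limma, Benjamini-Hochberg adjusted p = 0.26). Uchl3 stood at 0.340, 0.346 and 0.349 of the Uchl4 level in siRNA libraries and at 1.19, 1.15 and 1.03 in control libraries, so Uchl3 was the lower of the pair with the siRNA and the higher in each control. A single scaling factor per library cancels in this ratio (log2 difference −1.70). A two-sided exact permutation test gave p = 0.1, which cannot go lower with 3 against 3 libraries. Its adjusted p was 0.1 over 4 ratios, those of Uchl3 to Uchl4, Uchl1, Uchl5 and Bap1. Uchl3 enters each of these ratios, which were not planned, so they add no separate support for its difference. When the FPKM of Uchl4 was added to Uchl3, an alternative chosen after seeing the data, the sum averaged 4.23 ± 0.605 FPKM with the siRNA and 8.55 ± 0.726 FPKM in the controls (SD, n = 3 each). The fold of means for the sum was 2.02, and it still passed (log2 fold change −0.87, SE 0.12; limma, Benjamini-Hochberg adjusted p = 0.025). The size of the difference thus depended on whether the copy was counted in, and neither labels nor notes say how the authors assigned shared reads.

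The other Uch genes did not pass the test. Uchl1, the neuronal hydrolase and the most abundant of the family, had 28.8, 32.7 and 27.3 FPKM in siRNA libraries and 30.6, 30.5 and 36.0 FPKM in control libraries. The groups overlapped (log2 fold change −0.12, SE 0.11; limma, Benjamini-Hochberg adjusted p = 0.56). Bap1, a nuclear hydrolase that removes ubiquitin from histone H2A and acts as a tumour suppressor, had 27.9, 28.6 and 24.0 FPKM in siRNA libraries and 29.0, 28.1 and 28.1 FPKM in control libraries. Its groups also overlapped, with siRNA library 3 the lowest (log2 fold change −0.08, limma, Benjamini-Hochberg adjusted p = 0.677). Uchl5, which binds the proteasome cap and the INO80 chromatin remodeller, had 8.76, 10.6 and 9.89 FPKM in siRNA libraries and 11.3, 8.60 and 9.65 FPKM in control libraries. Its mean of 9.75 ± 0.926 FPKM with the siRNA lay within the spread of the controls, at 9.86 ± 1.38 FPKM (SD, n = 3 each) (limma, Benjamini-Hochberg adjusted p = 0.971). In order of level, Uchl1 and Bap1 stood first and second on average in both groups, overlapping in siRNA libraries but not in control libraries, then Uchl5, then Uchl3. The share of Uchl3 in the summed FPKM of the 4 genes was 1.51%, 1.73% and 1.58% in siRNA libraries and 6.68%, 6.27% and 5.16% in control libraries. Uchl4 was counted in neither this order nor this sum.

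**Figure D1:**
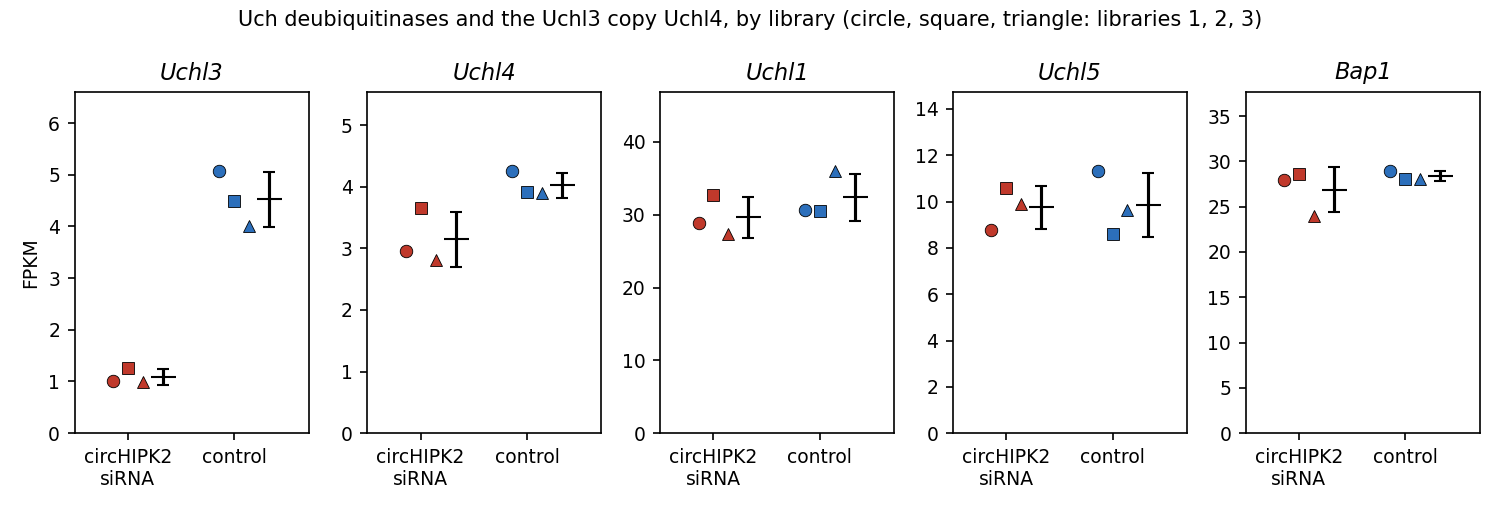
Level in FPKM (vertical axes from 0, each with its own range) of the 4 Uch genes and of Uchl4 in circHIPK2 siRNA libraries (red) and control libraries (blue). Symbols are libraries 1 to 3, and bars are the mean with SD. For Uchl3 the siRNA libraries lie between 0.982 and 1.27 FPKM and the control libraries between 4.01 and 5.08 FPKM, while Uchl1, Uchl5 and Bap1 overlap.

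The promoter window of Uchl3 is shown because this gene was the only member called. The window covers 250 bases before and 50 after the annotated start (RefSeq, GRCm38.p6, chr14:101653717-101654016, plus strand, printed 5′ to 3′ in gene direction), whereas the submitters' notes name mm9 for the expression values.
Uchl3 promoter: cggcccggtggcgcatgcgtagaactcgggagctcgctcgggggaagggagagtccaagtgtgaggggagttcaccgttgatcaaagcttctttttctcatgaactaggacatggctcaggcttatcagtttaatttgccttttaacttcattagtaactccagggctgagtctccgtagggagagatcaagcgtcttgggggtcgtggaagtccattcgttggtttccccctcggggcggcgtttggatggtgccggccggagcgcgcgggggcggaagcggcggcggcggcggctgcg
Promoters were searched on both strands for TGACNNNGC, the core of the element bound by NFE2L1, which is known to drive proteasome genes after proteasome inhibition. They were also searched for CCAAT, the NF-Y box, and for the core of the interferon-stimulated response element, spelled as 2 GAAA repeats with any 2 bases between them. The motifs were allowed to overlap. None of the 3 was found in this window, whose letters are therefore all in lower case.

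The alpha ring, which gates entry to the core, was measured for 7 members between 13.5 FPKM (Psma3) and 73.2 FPKM (Psma6) on average, and 0 passed the test. Their log2 fold changes had a median 0.12 below that of all entries, and 6 of 7 lay below it. Psma4 had the lowest log2 fold change of the ring, with 26.8, 29.7 and 25.2 FPKM in siRNA libraries and 36.3, 42.6 and 43.2 FPKM in control libraries. All siRNA libraries were below all controls (means 27.2 ± 2.27 FPKM with the siRNA and 40.7 ± 3.82 FPKM in the controls, SD, n = 3 each), but the difference missed the threshold (log2 fold change −0.56, SE 0.11; limma, Benjamini-Hochberg adjusted p = 0.111). Among members it ranked next after Uchl3, at place 90 of all entries. The others without overlap were Psma1, Psma2, Psma5 and Psma7, with log2 fold changes between −0.29 and −0.22 and mean levels between 18.1 and 60.4 FPKM. Psma6, the most abundant, had 69.7, 77.7 and 70.6 FPKM in siRNA libraries and 58.4, 78.2 and 84.7 FPKM in control libraries. It overlapped, as did Psma3 (for Psma6, log2 fold change −0.01, limma, Benjamini-Hochberg adjusted p = 0.987), and its sign turned under each of the 3 other scalings.

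The constitutive beta ring, whose Psmb5, Psmb6 and Psmb7 carry the cutting sites, was measured for 7 members between 40.4 FPKM (Psmb1) and 105 FPKM (Psmb2), and 0 passed. The median log2 fold change was 0.11 below that of all entries, and 6 of 7 members lay below it. Psmb2, a non-catalytic subunit and the most abundant, had 94.9, 101 and 93.0 FPKM in siRNA libraries and 118, 106 and 117 FPKM in control libraries, with no overlap. Psmb3, also non-catalytic, had the lowest log2 fold change of the ring, with 64.5, 54.8 and 53.3 FPKM in siRNA libraries against 79.2, 76.8 and 71.9 FPKM in control libraries. The groups did not overlap (log2 fold change −0.40, SE 0.11; limma, Benjamini-Hochberg adjusted p = 0.178). Psmb5, which carries the chymotrypsin-like site, had the highest, with 47.1, 49.7 and 44.5 FPKM in siRNA libraries and 54.4, 45.9 and 51.2 FPKM in control libraries, and it overlapped (log2 fold change −0.10; limma, Benjamini-Hochberg adjusted p = 0.622). The other catalytic subunits lay entirely below the controls. Psmb6, with the caspase-like site, had 84.8, 91.3 and 75.7 FPKM in siRNA libraries and 115, 94.7 and 102 FPKM in control libraries (log2 fold change −0.31). Psmb7, with the trypsin-like site, had 59.8, 59.0 and 52.1 FPKM in siRNA libraries and 75.5, 64.1 and 75.5 FPKM in control libraries (log2 fold change −0.33 with an SE of 0.11). Neither passed, with Benjamini-Hochberg adjusted p-values from limma of 0.248 for Psmb6 and 0.215 for Psmb7.

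The 6 ATPases of the cap, which unfold the substrate and open the gate, lay between 22.6 FPKM (Psmc2) and 106 FPKM (Psmc3), and 0 passed. All 6 had log2 fold changes below the median of all entries, by 0.14 at their own median. Psmc3 had 85.9, 90.8 and 77.6 FPKM in siRNA libraries and 171, 101 and 110 FPKM in control libraries. The groups did not overlap, but control library 1 stood alone at 171 FPKM, 1.69 times the lowest control (log2 fold change −0.54, SE 0.19; limma, Benjamini-Hochberg adjusted p = 0.223). Without that library the log2 fold change was −0.31. Psmc2 was uneven in both groups, at 13.5, 15.4 and 25.4 FPKM in siRNA libraries and 34.6, 29.6 and 16.8 FPKM in control libraries, so that siRNA library 3 and control library 3 crossed. Psmc6 had 26.8, 32.0 and 27.1 FPKM in siRNA libraries and 37.9, 36.8 and 33.1 FPKM in control libraries, the one other ATPase without overlap (log2 fold change −0.32, SE 0.11; limma, Benjamini-Hochberg adjusted p = 0.215). Psmc1, with the highest log2 fold change of the ATPases, had 57.7, 65.9 and 52.3 FPKM in siRNA libraries and 63.5, 66.6 and 61.8 FPKM in control libraries, and it overlapped (log2 fold change −0.13, limma, Benjamini-Hochberg adjusted p = 0.54).

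The 11 non-ATPase subunits of the cap taken by symbol include ubiquitin receptors, the deubiquitinase Psmd14 and scaffold subunits, and 0 of them passed. They lay between 13.6 FPKM (Psmd11) and 73.5 FPKM (Psmd2), with a median log2 fold change 0.10 below that of all entries and 9 of 11 members below it. The cap genes Adrm1 and Sem1 carry other symbols and were counted with the further pathway genes. Sem1 was lower without overlap (log2 fold change −0.46, limma, Benjamini-Hochberg adjusted p = 0.163), and Adrm1 overlapped (log2 fold change −0.24). Psmd2, a scaffold subunit, had 66.8, 70.8 and 60.8 FPKM in siRNA libraries and 82.5, 78.7 and 81.7 FPKM in control libraries, with no overlap (log2 fold change −0.29, SE 0.10; limma, Benjamini-Hochberg adjusted p = 0.215). Psmd1, Psmd7, Psmd8 and Psmd13 were also entirely below the controls, with log2 fold changes between −0.33 and −0.19. Psmd14, which cuts ubiquitin chains from the substrate at the cap, had 28.0, 27.7 and 22.4 FPKM in siRNA libraries and 26.0, 30.3 and 32.1 FPKM in control libraries, which overlapped (log2 fold change −0.17). Psmd4, a ubiquitin receptor, had 55.5, 50.8 and 44.1 FPKM in siRNA libraries and 58.9, 45.8 and 55.4 FPKM in control libraries, which overlapped. Psmd11, a scaffold subunit, was the most uneven member within groups, at 7.22, 8.24 and 21.2 FPKM in siRNA libraries and 19.8, 8.08 and 16.7 FPKM in control libraries. Its values ranged 2.94-fold among siRNA libraries and 2.45-fold among controls, and the log2 fold change of −0.33 had an SE of 0.41. Gm14048, an entry elsewhere that matches 1269 bases of Psmd11 at 98.0% identity, had 12.4, 12.8 and 11.4 FPKM in siRNA libraries and 14.9, 16.2 and 20.1 FPKM in control libraries.

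**Figure D2:**
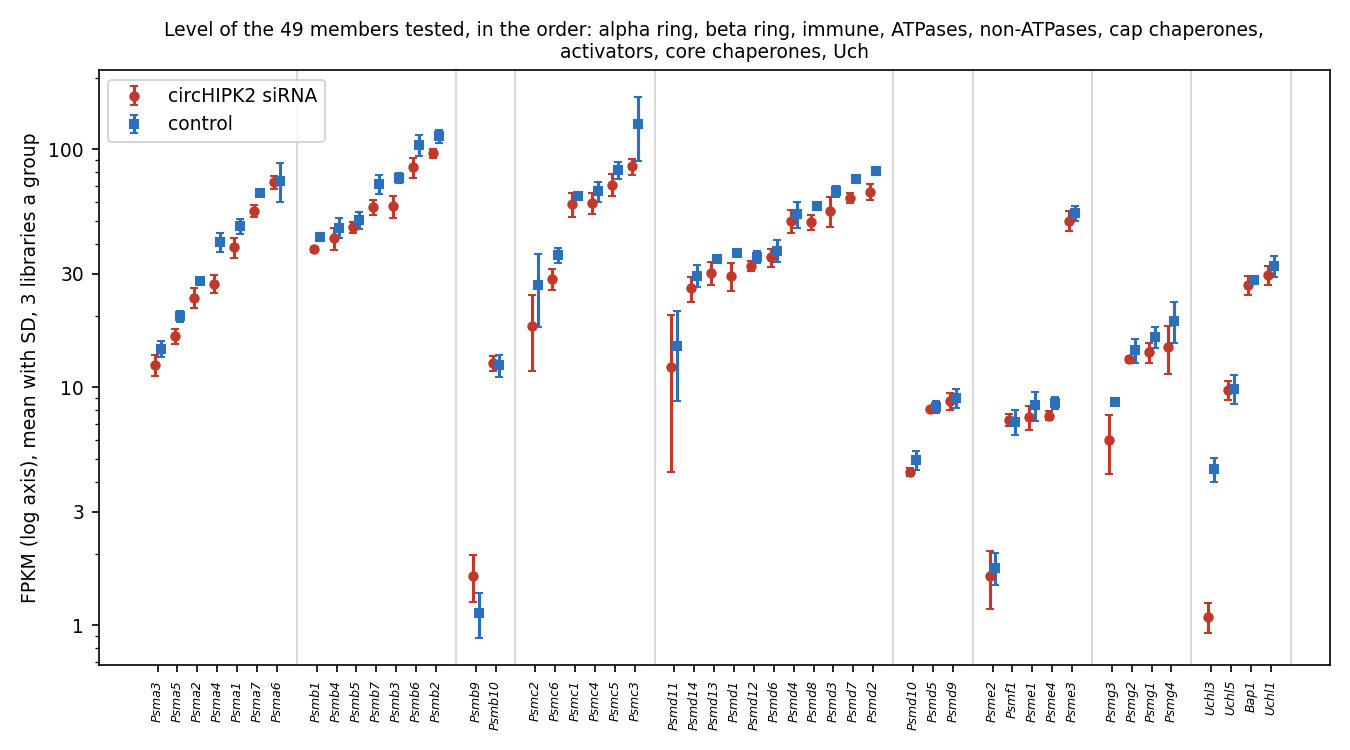
Mean level in FPKM (log axis) with SD over 3 libraries of the 49 members tested, circHIPK2 siRNA in red and control in blue, grouped by role and ordered by level within a role. Core and cap subunits average between 13.5 and 106 FPKM over both groups, and Psmb9, Psme2 and Uchl3 are the lowest members shown.

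Core and cap subunits together showed small differences, mostly on the lower side. Of 31 tested, 27 had a log2 fold change below the median of all entries, and 17 had all siRNA libraries below all controls (54.8%, against 22.1% of all entries). After median-of-ratios scaling 12 of 31 lay entirely below (38.7%, against 11.4% of all entries). With either scaling, 0 of the 31 lay entirely above the controls. The 31 averaged between 13.5 and 106 FPKM, whereas the shares of all entries include every entry from a mean of 1 FPKM upward. Whether the shares of the 31 differ from those of other entries at similar levels was not tested. The median log2 fold change of the 31 was −0.23, or 0.11 below that of all entries. Their summed FPKM was 1440, 1526 and 1347 in siRNA libraries and 1820, 1628 and 1713 in control libraries, with no overlap. As a share of all FPKM outside the 9 ribosomal RNA entries, the 52 members held 0.406%, 0.4% and 0.428% in siRNA libraries and 0.443%, 0.387% and 0.437% in control libraries, which overlapped. By their own entries, mean levels of single subunits differed 7.87-fold from the lowest (Psma3) to the highest (Psmc3). Both ends are uncertain. The own entry of Psma3 made up 17.4% of its sum with near-identical copies, 77.3 FPKM. The mean of Psmc3 includes control library 1, at 171 FPKM.

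Several low entries belong to genes with copies elsewhere. A near-identical copy or overlapping transcript with an entry of its own (at least 95% identity over at least 300 bases) was found for 13 members. The entry Gm13835 matched 685 bases of Psma3 exactly and stood at 58.6, 61.9 and 55.1 FPKM in siRNA libraries and 68.6, 67.4 and 67.3 FPKM in control libraries, whereas Psma3 itself stood at 13.9, 11.9 and 11.5 FPKM in siRNA libraries and at 15.6, 13.4 and 14.6 FPKM in control libraries. With its copies added, Psma3 averaged 77.3 FPKM over all libraries, of which its own entry made up 17.4%. For Psma5 the own entry made up 31.9% of such a sum of 56.9 FPKM, and for Psma4 68.9% of 49.3 FPKM. With the copies added, the log2 fold change of Psma4 was −0.43 (limma, Benjamini-Hochberg adjusted p = 0.159), and of members with copies Uchl3 alone passed.

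**Figure D3:**
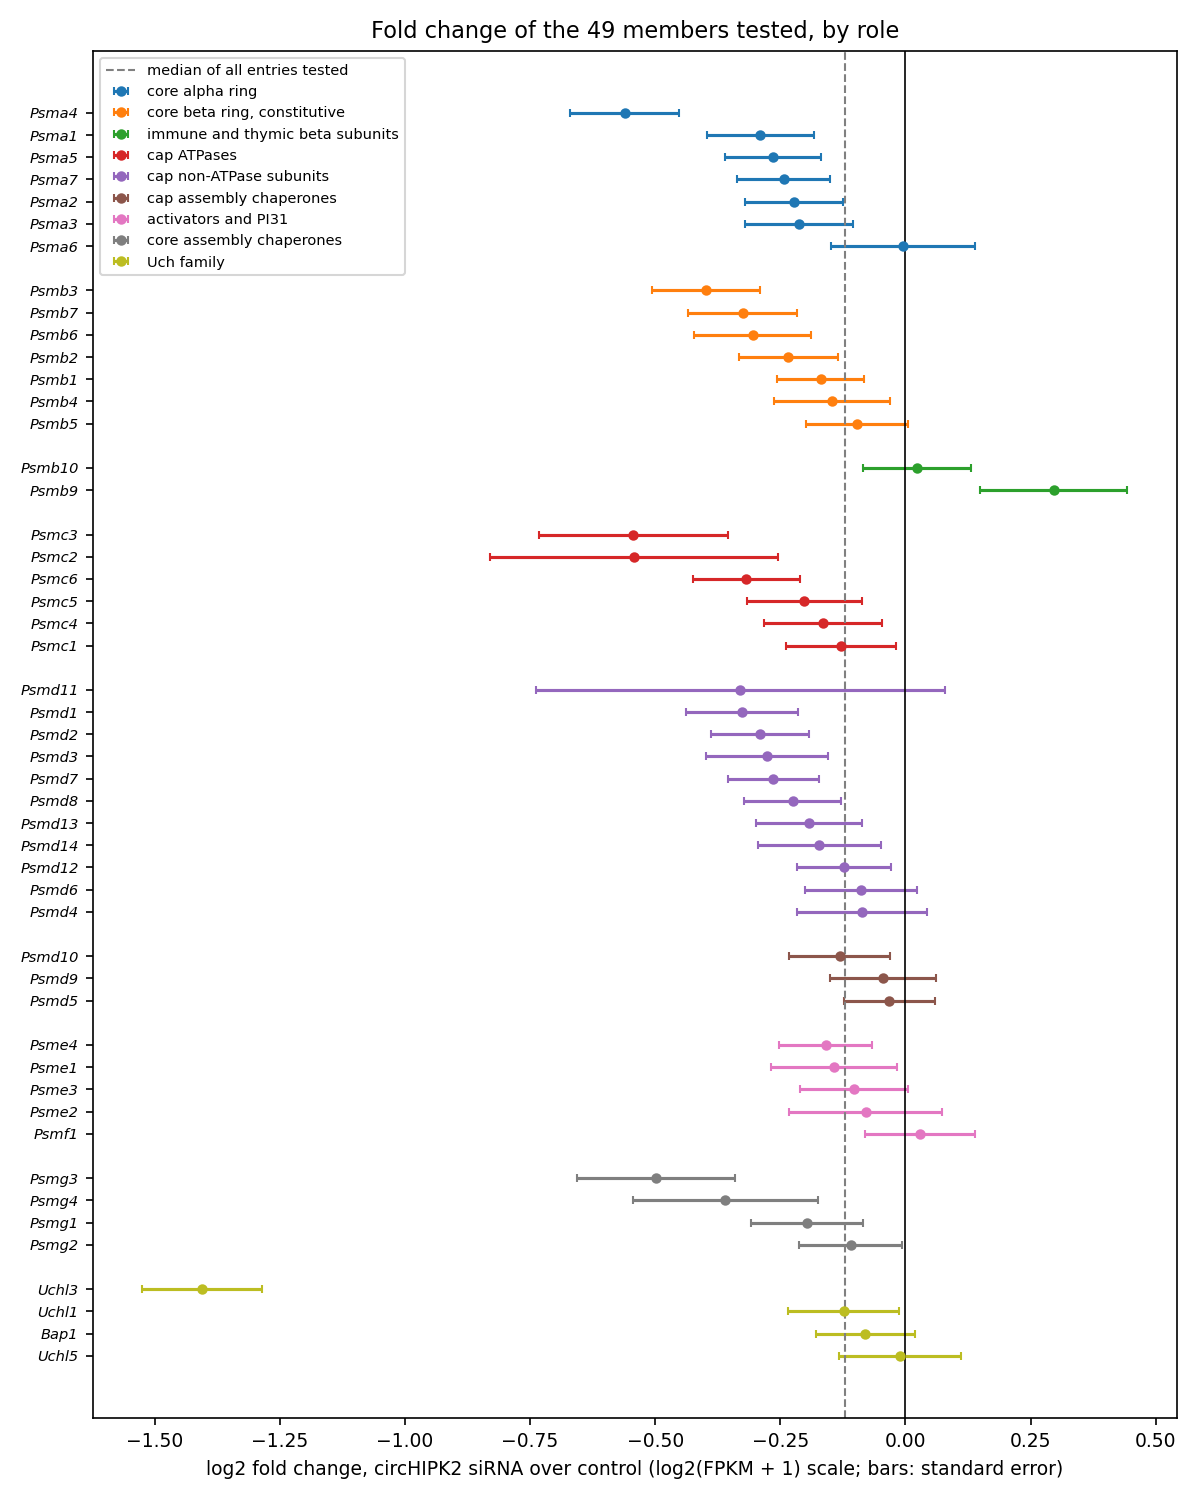
Log2 fold change (circHIPK2 siRNA over control, log2(FPKM + 1) scale) with its standard error for the 49 members tested, by role. The solid line marks 0 and the dashed line the median of all entries (−0.12). Uchl3 stands at −1.40, the core and cap subunits lie between −0.56 and −0.01, and Psmb9, Psmb10 and Psmf1 lie above 0.

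The immune beta subunits, induced by interferon and used for antigen presentation, were present at low levels, with means at or above those of the controls in siRNA libraries, and 0 of the 2 tested passed. The microglial markers given above stayed below 1 FPKM in sum in every library, and which cells held the immune subunits was not tested. Psmb8 had 1.44, 1.01 and 0.842 FPKM in siRNA libraries and 0.419, 0.894 and 0.612 FPKM in control libraries, below the filter and overlapping. Psmb9 had 1.91, 1.73 and 1.21 FPKM in siRNA libraries and 1.38, 0.907 and 1.08 FPKM in control libraries, also overlapping (log2 fold change 0.30, SE 0.15; limma, Benjamini-Hochberg adjusted p = 0.332). Psmb10 was the most abundant, with 13.2, 13.0 and 11.6 FPKM in siRNA libraries and 13.1, 10.9 and 13.2 FPKM in control libraries (log2 fold change 0.02, limma, Benjamini-Hochberg adjusted p = 0.921). Its sign turned without control library 2 (−0.06) or siRNA library 1 (−0.01). Psmb11 was listed at 0 in the 3 control libraries and in siRNA library 3, and at 0.00311 and 0.0205 FPKM in siRNA libraries 1 and 2.

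Each immune subunit replaces 1 constitutive counterpart at the same site, so their ratio within a library was compared. A single scaling factor per library leaves this ratio unchanged, whereas quantile normalization can change it and was not applied to the ratios. Psmb10 stood at 22.1%, 22.0% and 22.2% of Psmb7 in siRNA libraries and at 17.4%, 17.0% and 17.5% in control libraries. This ratio was nearly constant within each group and did not overlap between groups (means 22.1 ± 0.119% with the siRNA and 17.3 ± 0.27% in the controls, SD, n = 3 each; log2 difference 0.36). Psmb9 stood at 2.25%, 1.89% and 1.60% of Psmb6 in siRNA libraries and at 1.20%, 0.957% and 1.06% in control libraries, again without overlap (log2 difference 0.83). Taken singly, Psmb10 hardly differed (log2 fold change 0.02), while Psmb7 was lower (−0.33). The Psmb10 ratio thus differed mainly through Psmb7. Psmb9 was higher (0.30) and Psmb6 lower (−0.31), and none of these single changes passed the test. Psmb8 stood at 3.06%, 2.02% and 1.89% of Psmb5 in siRNA libraries and at 0.771%, 1.95% and 1.20% in control libraries, where siRNA library 3 fell below control library 2. In two-sided exact permutation tests p was 0.1 for Psmb10, 0.1 for Psmb9 and 0.2 for Psmb8 (adjusted over the 3 ratios, 0.15, 0.15 and 0.2), and since 3 against 3 libraries cannot reach below 0.1, none could pass. Psmb9 shares up to 212 exonic bases with Tap1 on the opposite strand, and Psmb7 shares up to 253 with Nek6. The library kit marks strand, but neither labels nor notes say whether the quantification used it. It is thus unknown whether reads of these stretches were told apart. Psmb5 shares up to 109 exonic bases with Mir686 on the same strand, where strand cannot separate reads. Gm3375, a near-identical copy of Psmb5, averaged 2.41 FPKM over all libraries, against 48.8 FPKM for Psmb5.

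**Figure D4:**
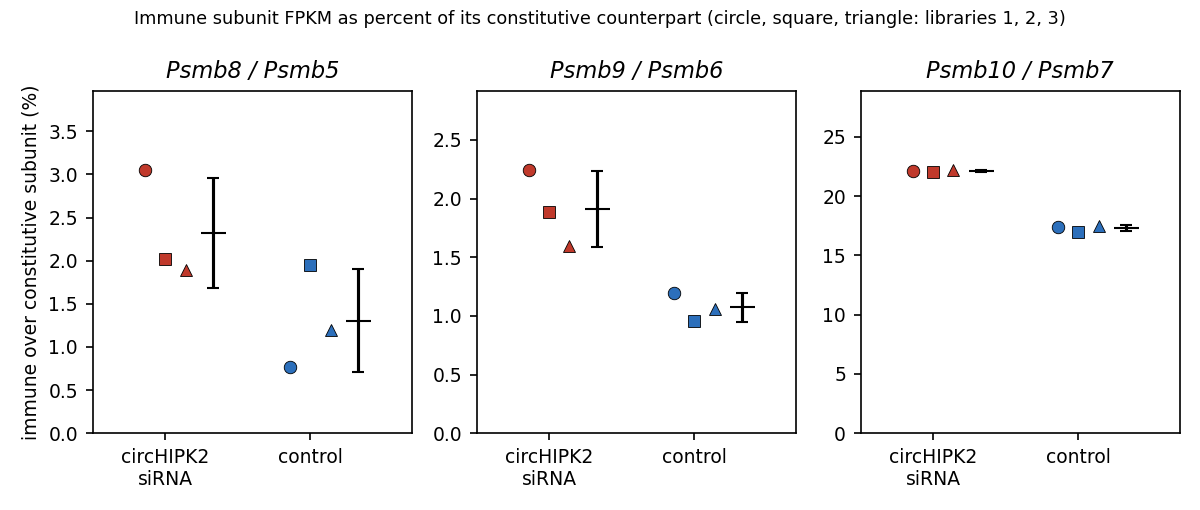
FPKM of each immune beta subunit as a percent of the constitutive subunit it replaces (vertical axes from 0), in circHIPK2 siRNA libraries (red) and control libraries (blue), with mean and SD. Psmb10 over Psmb7 lies between 22.0% and 22.2% in siRNA libraries and between 17.0% and 17.5% in control libraries, and Psmb8 over Psmb5 overlaps. The level of Psmb10 itself overlaps between groups, and that of Psmb7 lies lower with the siRNA.

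The promoters of Psmb9 and Psmb6, the immune and constitutive subunit of 1 site, are shown because their ratio did not overlap between groups. Both windows are from RefSeq (GRCm38.p6), at chr17:34187281-34187580 on the minus strand for Psmb9 and chr11:70525107-70525406 on the plus strand for Psmb6, and are printed 5′ to 3′ in gene direction. Capitals mark the CCAAT box of Psmb9, which is on the opposite strand, and the NFE2L1 core of Psmb6.
Psmb9 promoter: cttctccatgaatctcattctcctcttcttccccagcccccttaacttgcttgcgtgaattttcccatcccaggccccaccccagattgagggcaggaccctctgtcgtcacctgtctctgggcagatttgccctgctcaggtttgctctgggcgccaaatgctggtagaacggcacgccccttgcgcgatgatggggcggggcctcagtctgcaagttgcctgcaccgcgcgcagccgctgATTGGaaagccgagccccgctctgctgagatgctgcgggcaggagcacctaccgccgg
Psmb6 promoter: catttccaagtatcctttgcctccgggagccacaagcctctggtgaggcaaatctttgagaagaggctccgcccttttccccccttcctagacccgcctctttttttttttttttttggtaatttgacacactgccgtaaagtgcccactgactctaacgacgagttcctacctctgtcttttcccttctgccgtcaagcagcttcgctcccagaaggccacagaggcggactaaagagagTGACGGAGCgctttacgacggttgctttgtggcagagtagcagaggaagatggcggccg
RefSeq windows were matched for 44 of the 52 members (47 windows). TGACNNNGC was in 17.0% of these windows, against 12.4% of all 32841 windows. Among the 4 constitutive beta genes with a window, it was in those of Psmb5 and Psmb6 and not in those of Psmb3 and Psmb4. Psmb1, Psmb2 and Psmb7 had no matched window and were not searched. CCAAT was in 29.8% of member windows and 37.4% of all, and in 5 of the 8 alpha ring windows (62.5%). The interferon element core was in 10.6% of member windows and 3.44% of all, in those of Psmb3, Psmd4, Psmd9, Psme1 and Psmg4, and in 0 of the 4 immune and thymic subunit windows. These are matches of letters, not measured binding.

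The other activators of the core and the inhibitor PI31 did not pass the test. Psme1 and Psme2, the interferon-induced PA28 alpha and beta subunits, had low entries. Psme1 had 6.73, 8.42 and 7.33 FPKM in siRNA libraries and 8.64, 7.14 and 9.41 FPKM in control libraries. Psme2 had 1.14, 2.00 and 1.69 FPKM in siRNA libraries and 1.44, 1.86 and 1.93 FPKM in control libraries, and both genes overlapped. The coding sequence of Psme2 is 99.3% identical to that of Psme2b, an entry of its own with 19.7, 21.4 and 18.9 FPKM in siRNA libraries and 18.1, 17.3 and 19.7 FPKM in control libraries. Psme2 made up 8.04% of the sum of the pair, and the log2 fold change of the sum was 0.10 (limma, Benjamini-Hochberg adjusted p = 0.602), so its sign was opposite to the −0.08 of Psme2 alone. Psme3, the nuclear PA28 gamma and the most abundant activator, had 46.3, 55.5 and 48.7 FPKM in siRNA libraries and 53.5, 50.1 and 58.0 FPKM in control libraries, which overlapped. Psme4, the PA200 activator, had 7.98, 7.45 and 7.42 FPKM in siRNA libraries and 8.04, 8.80 and 9.04 FPKM in control libraries, without overlap (log2 fold change −0.16, SE 0.09; limma, Benjamini-Hochberg adjusted p = 0.388). Psmf1, which encodes PI31, had 7.39, 7.72 and 6.85 FPKM in siRNA libraries and 6.89, 6.48 and 8.16 FPKM in control libraries, which overlapped.

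Assembly chaperones, which build the core and the cap but leave the finished particle, had lower levels than most subunits, and 0 of 7 passed. Among the core chaperones Psmg3 had the lowest log2 fold change, with 7.92, 5.28 and 4.79 FPKM in siRNA libraries and 8.99, 8.40 and 8.75 FPKM in control libraries. These did not overlap (log2 fold change −0.50, SE 0.16; limma, Benjamini-Hochberg adjusted p = 0.203), with siRNA library 1 close to the controls. Psmg3 shares up to 280 exonic bases on the same strand with Gm26938, which had 6.50, 5.09 and 3.97 FPKM in siRNA libraries and 6.66, 7.44 and 7.23 FPKM in control libraries. Psmg4, the most abundant core chaperone, had 17.5, 15.7 and 11.0 FPKM in siRNA libraries and 23.2, 16.2 and 17.7 FPKM in control libraries. Psmg2, with the highest log2 fold change, had 12.9, 13.1 and 13.5 FPKM in siRNA libraries and 13.4, 13.3 and 16.2 FPKM in control libraries, and both genes overlapped. The cap chaperones lay close to 0, with log2 fold changes of −0.13 for Psmd10, −0.04 for Psmd9 and −0.03 for Psmd5. Psmd10, also known as the oncoprotein gankyrin, had 4.38, 4.60 and 4.25 FPKM in siRNA libraries and 5.40, 4.50 and 4.89 FPKM in control libraries. Psmd9 had 8.57, 9.50 and 8.13 FPKM in siRNA libraries and 8.08, 9.55 and 9.50 FPKM in control libraries. Psmd5 had 8.17, 8.10 and 8.00 FPKM in siRNA libraries and 8.39, 8.75 and 7.78 FPKM in control libraries, so that all 3 overlapped.

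Other genes of the pathway showed no called difference either. Of 28 further proteasome and ubiquitin genes, 0 rose and 0 fell, and their median log2 fold change was 0.06 below that of all entries. The polyubiquitin gene Ubb, the most abundant, had 927, 921 and 690 FPKM in siRNA libraries and 1027, 948 and 914 FPKM in control libraries. The groups overlapped, since siRNA libraries 1 and 2 lay above control library 3 (log2 fold change −0.20). Zfand5, a proteasome activator, had the highest log2 fold change of the list (0.06, and 0.0094 without siRNA library 3). Of 17 tested complex partners of Bap1 and Uchl5, 0 passed, from −0.30 for the INO80 subunit gene Nfrkb to 0.20 for the transcription factor gene Foxk1, with the Bap1 partner Hcfc1 at −0.12. The value of Nfrkb rested on siRNA library 3, at 3.12 FPKM against 5.71 and 7.40 FPKM in siRNA libraries 1 and 2, and was −0.0063 without it and −0.52 without siRNA library 2. Foxk1 had 8.62, 8.53 and 8.01 FPKM in siRNA libraries and 7.06, 6.69 and 7.79 FPKM in control libraries, without overlap (limma, Benjamini-Hochberg adjusted p = 0.319). Of 45 tested deubiquitinases of other families, 0 passed, from −0.35 for Cyld, an NF-kB regulator, to 0.06 for Mindy1, with Otub1, the most abundant, at −0.16. Uchl3 was the only gene to pass among these 45 and the 4 Uch genes, while at an unadjusted p below 0.05 another 7 of the 45 were lower, a share near the 15.5% of all entries. Of 9 tested genes of interferon-induced antigen presentation, 0 passed and 8 lay above the median of all entries, from −0.21 for the class I gene H2-K1 to 0.17 for the peptide transporter gene Tap1, with B2m at 0.04. Without siRNA library 2 or control library 2, which hold the highest and the lowest level, the value of Tap1 was 0.057 or 0.058.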

How the data were processed

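Poly(A)-selected RNA of 6 libraries, 3 with the circHIPK2 siRNA and 3 with the control siRNA, was sequenced. The deposited values are FPKM per gene, with HISAT, StringTie, edgeR and the mm9 build named in the submitters' processing notes. Neither labels nor notes give their versions, the annotation, or whether strand and the molecular identifiers of the adapters were used. Depth was estimated from low FPKM values of genes with 1 transcript of at least 500 bases, of which 39.6% to 43.6% lay within 0.05 of a whole number of fragments, against 10% by chance.

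The groups were compared with limma 3.58.1 (R 4.3.3) over entries whose mean reached 1 FPKM (log2(FPKM + 1), mean-variance trend, two-sided, Benjamini-Hochberg over 13702 entries). The log2(FPKM + 1) scale understates changes of weakly expressed genes. A simulation was built on these 13702 entries, with changes set as folds of FPKM + 1. In it the test recovered 45.6%, 82% and 95.6% of genes changed 1.5-fold, 2-fold and 4-fold, and 5.44% of calls were false. The simulated noise was independent between genes, with no shift shared across a library. These shares, that of false calls included, may therefore not hold for the real libraries. Ratios within a library were compared with exact permutation tests (SciPy 1.17.1). Copies were found with blastn 2.17.0 on GENCODE vM21 transcripts.

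The members and lists were chosen with earlier results of these data known. Named were the Uch, immune, activator and PI31 genes, called members, and in each other group the most abundant member and those with the highest and lowest log2 fold change. One gene that this rule names in a pathway list is not reported here. Copies, members below the filter, genes at the ends of a range and the cap genes Adrm1 and Sem1 were named in addition, after their values were seen. Alternatives were other pseudocounts, filters, scalings and moderation, weighted libraries, a block by replicate number, addition of copies, and each library left out in turn.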

Additional observations from a re-analysis of the deposited data

How the results depend on the processing

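Uchl3 was lower and passed the test under each alternative in which it was tested (log2 fold change −1.97 to −0.87; Benjamini-Hochberg adjusted p from limma between 0.00134 and 0.0442). It fell under the filter at a mean of 5 FPKM, where 0 members were called. With library weights 2 members fell, Psma4 being the second, and over all entries 55 rose and 265 fell. Over all entries, against 16 rises and 19 falls, 7 rose with no filter, 8 with median-of-ratios scaling, 6 with quantile normalization and 8 with robust moderation, and 8 fell with a mean of at least 5 FPKM. With 1 library left out, 2 to 15 entries rose and 6 to 23 fell: 2 rose and 6 fell without siRNA library 3, 10 and 8 rose without control libraries 2 and 3, and 12 fell without control library 1. Among members, 0 rose under any of these settings, and 1 fell in each fit that left out a library.

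Samples with the same number deviated together only weakly (correlations of deviations 0.046, 0.0152 and 0.133), although the last was the highest of all pairs. By contrast, siRNA library 1 correlated best with control library 2 (0.117) and siRNA library 2 with control library 3 (0.0311). The numbers were not taken as pairs, and these values do not settle whether they are. With the replicate block Uchl3 stood at −1.40 (limma, Benjamini-Hochberg adjusted p = 0.00134), and the block changed no call of a member. Over all entries 23 rose and 23 fell with the block.

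Uncalled log2 fold changes near 0 turned sign with the scaling. With median-of-ratios scaling they were 0.10 for Uchl5, 0.040 for Bap1, 0.019 for Psme3, 0.12 for Psma6, 0.026 for Psmb5, 0.035 for Psmd4, 0.067 for Psmd9, 0.078 for Psmd5 and 0.0068 for Psmg2. With quantile normalization they were 0.043 for Uchl1, 0.11 for Uchl5, 0.074 for Bap1, 0.082 for Psme3, 0.19 for Psma6, 0.094 for Psmb5, 0.062 for Psmc1, 0.099 for Psmd4, 0.071 for Psmd9, 0.077 for Psmd5, 0.023 for Psmg2, 0.050 for Hcfc1 and 0.024 for Otub1. Without the 9 ribosomal RNA entries they were 0.077 for Uchl1, 0.18 for Uchl5, 0.12 for Bap1, 0.041 for Psme1, 0.049 for Psme2, 0.10 for Psme3, 0.025 for Psme4, 0.20 for Psma6, 0.11 for Psmb5, 0.075 for Psmc1, 0.12 for Psmd4, 0.14 for Psmd9, 0.15 for Psmd5, 0.040 for Psmd10, 0.084 for Psmg2, 0.0087 for Ubb, 0.078 for Hcfc1 and 0.041 for Otub1. With library weights they were 0.0036 for Psma6 and −0.034 for Zfand5, and with copies added 0.098 for Psme2. With 1 library left out the ranges crossed 0 for Uchl5 (−0.096 to 0.085), Psmb10 (−0.061 to 0.078), Psme2 (−0.19 to 0.056), Psmf1 (−0.032 to 0.11), Psma6 (−0.16 to 0.10), Psmd4 (−0.19 to 1.2e-05), Psmd9 (−0.12 to 0.0011), Psmd5 (−0.074 to 0.0019), Mindy1 (−0.013 to 0.12) and B2m (−0.022 to 0.11).

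Group medians relative to all entries kept their sign for both rings, the cap subunits, the core chaperones and the immune subunits. Their size varied over the alternatives, from −0.23 to −0.085 for the alpha ring and from −0.22 to −0.055 for the beta ring. The ATPases ranged from −0.24 to −0.090 and the non-ATPases from −0.21 to −0.030, against −0.14 and −0.10 in the main setting. With no filter, which adds unexpressed entries to the reference median, group medians moved to −0.22 for the beta ring, −0.24 for the ATPases and −0.21 for the non-ATPases. In that setting they were −0.028 for the cap chaperones, −0.088 for the activators, −0.26 for the core chaperones and −0.086 for the Uch genes. The immune median was 0.39 with a pseudocount of 0.1 and 0.16 (Psmb10 alone) with a mean of at least 5 FPKM. The core chaperone median was −0.091 with library weights and −0.24 to −0.069 with 1 library left out. With a pseudocount of 1 or with 1 library left out, ratios of immune to constitutive subunits kept their direction. Their log2 differences were 0.45 to 1.24 for Psmb8, 0.60 to 0.95 for Psmb9 and 0.34 to 0.36 for Psmb10. A single fragment on 1 kb of transcript was worth 0.0457 to 0.0543 FPKM, so the levels of Psmb8, Psmb9 and Psme2, and that of Uchl3 in siRNA libraries, rest on few fragments.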
